A study of Mus musculus with 6 samples.

Results

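The proteasome genes of liver were compared between 3 Lkb1KOlivad mice (KO) and 3 control mice (WT). The members were all mouse genes with a single symbol in the array annotation that begins with Psm, goes on with a letter from a to g and then has a digit. The rule found 50 genes of the 19938 on the array that could be named, each read from its brightest probe set. They are 8 genes of the 20S alpha ring, 7 of the constitutive beta ring, 4 immunoproteasome or thymus-specific beta subunits, 6 19S ATPases, 11 other 19S subunits, 3 19S assembly chaperones, 5 activators and inhibitors, 4 20S assembly chaperones and 2 genes that only carry the name. *Psmc3ip* encodes a meiotic recombination factor and *Psme3ip1* a partner of the activator PA28 gamma, so these 2 are not proteasome subunits. A further gene with such a name, *Psme2b*, shares its probe set with *Psme2* and was not counted.

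All 6 mice carried floxed *Lkb1* alleles on both chromosomes (Lkb1 fl/fl, FVB/N background) and received tamoxifen at 8 to 12 weeks of age. Only the KO mice also carried TTR-CreTam, a Cre recombinase that tamoxifen switches on and that the transthyretin promoter restricts to hepatocytes, so that the other cells of the liver are meant to keep their *Lkb1*. The WT mice were littermates without Cre, and most animals of the study were examined 15 days after the injection. The labels give 6 females, and the study's text gives the fasted state. The liver of each mouse was hybridized to its own Affymetrix mouse gene array, and the values are log2 RMA signals.

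The 26S proteasome is the main protease of the cytosol and nucleus and degrades proteins tagged with ubiquitin. Its 20S core is a barrel of stacked alpha and beta rings with the active sites inside, and its 19S cap recognizes, deubiquitinates and unfolds the substrate. Interferon gamma exchanges the catalytic beta subunits for the immunoproteasome subunits and induces the PA28 activator, which alters the peptides offered on MHC class I molecules. The transcription factors *Nfe2l1* and *Nfe2l2* act on antioxidant response elements of proteasome genes, and *Nfe2l1* restores proteasome gene expression when the proteasome is inhibited.

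The promoters of 4 members are shown. They belong to the constitutive and the interferon-inducible arm that the values below set side by side, and each holds a motif named here. They do not stand for every gene of these arms. They run from 250 bases before to 50 bases after the annotated start of each gene (RefSeq, GRCm38.p6), read 5′ to 3′ on the gene's strand. The promoters of *Psmb5* (chr14:54617946-54618245, minus strand) and *Psmb6* (chr11:70525107-70525406, plus strand), which encode constitutive catalytic subunits, hold the antioxidant response element TGACNNNGC in capitals, from base 204 and base 242 of the printed sequence. The promoter of *Psmb8* (chr17:34197945-34198244, plus strand) holds the interferon-gamma activated site motif TTCNNNGAA, in capitals from base 154. In the promoter of *Psme1* (chr14:55578244-55578543, plus strand), the capitals from base 261 are the interferon response motif GAAANNGAA read on the opposite strand.
*Psmb5*: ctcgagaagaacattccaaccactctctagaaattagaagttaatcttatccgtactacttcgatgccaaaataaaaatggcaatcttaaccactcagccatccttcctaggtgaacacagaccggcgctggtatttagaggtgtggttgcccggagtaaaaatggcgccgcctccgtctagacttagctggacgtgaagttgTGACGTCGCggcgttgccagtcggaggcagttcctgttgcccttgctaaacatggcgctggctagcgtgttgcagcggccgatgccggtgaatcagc
*Psmb6*: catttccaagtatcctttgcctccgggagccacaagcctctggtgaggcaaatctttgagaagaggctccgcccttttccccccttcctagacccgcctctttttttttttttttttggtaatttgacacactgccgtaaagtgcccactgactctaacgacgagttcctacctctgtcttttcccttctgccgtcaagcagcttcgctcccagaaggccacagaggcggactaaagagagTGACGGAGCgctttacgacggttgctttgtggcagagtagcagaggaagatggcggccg
*Psmb8*: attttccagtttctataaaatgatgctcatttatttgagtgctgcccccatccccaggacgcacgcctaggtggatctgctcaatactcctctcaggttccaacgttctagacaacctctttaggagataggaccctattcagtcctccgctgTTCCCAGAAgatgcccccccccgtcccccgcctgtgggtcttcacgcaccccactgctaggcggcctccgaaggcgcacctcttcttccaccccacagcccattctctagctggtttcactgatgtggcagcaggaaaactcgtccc
*Psme1*: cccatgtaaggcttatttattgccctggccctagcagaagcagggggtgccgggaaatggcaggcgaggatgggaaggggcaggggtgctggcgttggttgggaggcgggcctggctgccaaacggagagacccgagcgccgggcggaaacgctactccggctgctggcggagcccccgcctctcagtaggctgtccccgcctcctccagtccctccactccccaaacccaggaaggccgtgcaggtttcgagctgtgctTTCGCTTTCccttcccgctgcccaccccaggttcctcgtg

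Promoters of 42 of the 50 members were in the sequence table of 27025 genes, and each motif was searched on both strands. The interferon motifs named above share the letters GAA and can overlap. The antioxidant response element was present in 6 member promoters, those of *Psmb5*, *Psmb6*, *Psmc6*, *Psmd9*, *Psmd12* and *Psme4*. That was 14.3% of the members, beside 14% of all genes. The NF-Y motif CCAAT was found in 38.1% of the members and 41.1% of all genes. The Sp1 motif GGGCGG stood in 24 member promoters, or 57.1%, beside 38.2% of all genes. The interferon response motif was present in 7 members (16.7%, beside 9.76% of all genes), of which *Psme1* was the 1 gene of the interferon-inducible arm. The interferon-gamma activated site motif was present in *Psmb8*, *Psmd2* and *Psmg1* (7.14%, beside 9.55%). *Psmb9* and *Psme2*, also of the interferon-inducible arm, held neither interferon motif, while the constitutive *Psmb3* and *Psmb4* held the interferon response motif. These matches describe letters in this window and no binding.

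The deleted gene checked the labels. *Stk11*, which encodes Lkb1, had log2 signals of 6.52, 6.42 and 6.48 in KO mice B253, B304 and B305 and of 8.25, 8.13 and 7.96 in WT mice B256, B267 and B302, a log2 fold change of -1.64 (standard error, SE, of 0.12; adjusted p = 0.00705 from limma). The call was lost in the methods' t-test (adjusted p = 0.566) and when any 1 mouse other than B302 was left out (adjusted p = 0.0501 to 0.139 from limma). The array medians ran from 5.03 to 5.08. The mouse numbers form a two-hundred and a three-hundred series that each hold both groups, and no source used here says what the series stand for. B253 is the only KO mouse of the two-hundred series, and B302 the only WT mouse of the three-hundred series. Every difference within a series therefore hangs on that mouse.

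No proteasome gene was called between the groups. After adjustment over all genes, 0 of the 50 members had p under 0.05 (limma, smallest adjusted p = 0.9997), where 0.00502% of all genes, *Stk11* alone, did. Without adjustment, 1 member, *Psmg3*, was higher in the KO livers at p under 0.05, beside 1.52% of all genes, and 0 members were lower, beside 1.51%. The methods' t-test gave 0 members in either direction at the same threshold, and 0 after adjustment. All KO values lay above all WT values for 2 members, *Psmd14* and *Psme3ip1*, beside 3.46% of all genes, and below them for 1 member, *Psme3*, beside 3.7%. These counts moved with the mice included. With 1 mouse left out, the members at an unadjusted p under 0.05 numbered 0 without B253 or B302, 1 without B304 or B305, and 2 without B256 or B267. The number among all 19938 genes moved too, from 388 without B304 to 866 without B256. Members whose groups do not overlap numbered 5 without B253, 16 without B256, 8 without B267 and 6 without B302, B304 or B305, where fewer mice have to be kept apart, and 0 after quantile normalization. The share of all genes was not counted for these settings, so the counts cannot be set against it.

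The members leaned to small values above 0. The log2 fold change was above 0 in 38 of 50 members (76%), beside 51.6% of all genes. All members were read in the same 6 mice, so they are not independent and the share was not tested. Their median log2 fold change was 0.07, beside 0.0049 over all genes, and the members ranged from -0.23 (*Psme3*) to 0.44 (*Psmg3*). The median was 0.02 without KO mouse B253, which left 27 members above 0, and 0.0067 without WT mouse B302, which left 29. It was 0.14 without WT mouse B256 and 0.05 without WT mouse B267. Within the two-hundred series of mice, where B253 is the only KO mouse, the median was 0.11. Within the three-hundred series, where B302 is the only WT mouse, it was 0.12.

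**Figure D1:**
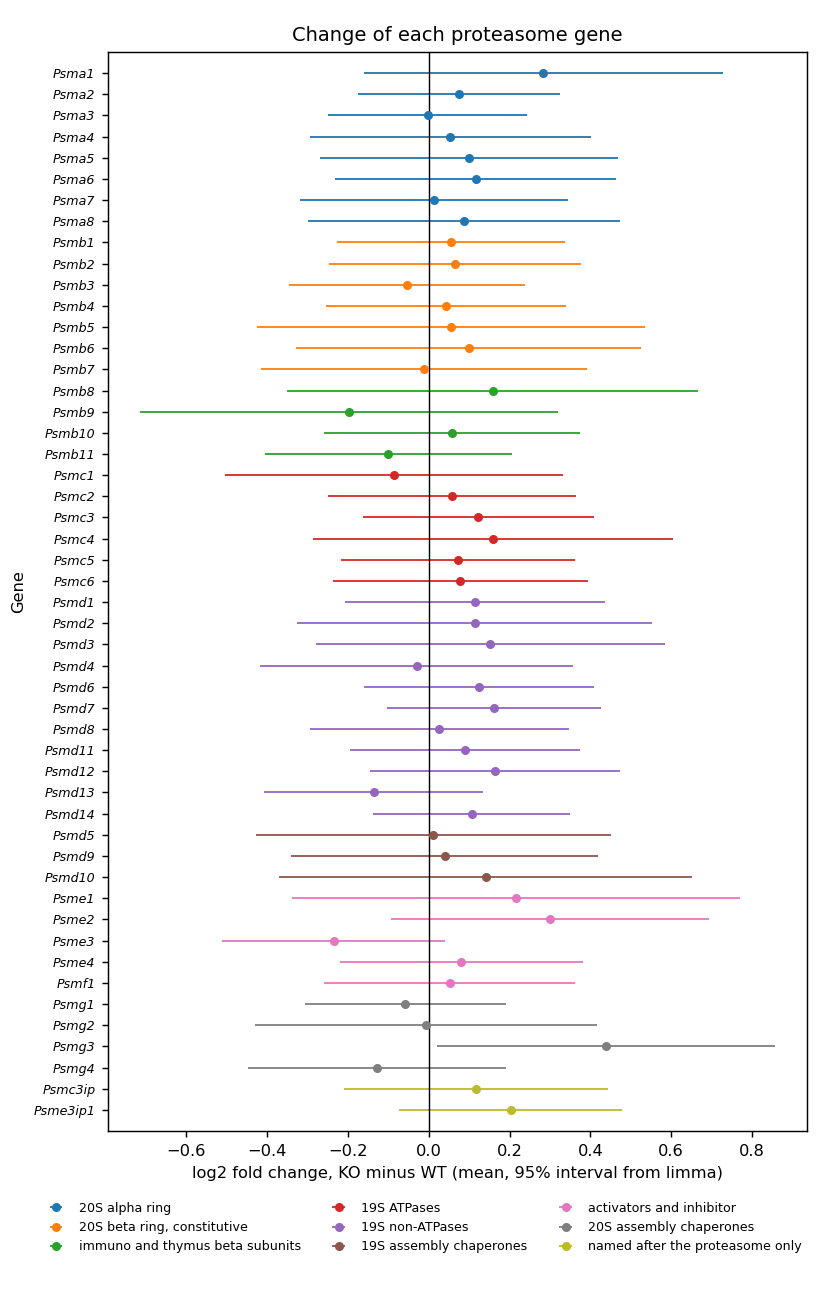
Log2 fold change of each of the 50 proteasome genes (horizontal axis, KO minus WT, 3 mice per group), with dots for the estimate, bars for its 95% interval from limma and colours for the role of the gene. The dots lie between -0.23 and 0.44, and *Psmg3* is the 1 gene whose bar does not reach 0.

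Precision was limited by the number of arrays. The 95% intervals of the members' folds had a median lower end of 0.827 and a median upper end of 1.32. Over all members, the lowest end was 0.61, for *Psmb9*, and the highest was 1.81, for *Psmg3*. For the 31 constitutive subunits of the 26S proteasome, these ends were 0.705 and 1.66, so a larger fold than these lay outside the interval of every such subunit. The spread between mice of a group was close to that of other genes, with a median pooled SD of 0.174 over the members and 0.172 over all genes.

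The alpha ring, which gates the entrance of the core, held 7 genes above 0 and 1 below, with a median of 0.08 that turned to -0.01 without WT mouse B302. *Psma1* had the largest value of the ring. Its log2 signals were 10.32, 10.32 and 10.12 in the KO mice and 10.32, 10.06 and 9.53 in the WT mice. The groups overlapped, and WT mouse B302 stood lowest, apart from the other 5. The log2 fold change of *Psma1* was 0.28 (SE 0.20, fold 1.22 with a 95% interval of 0.894 to 1.66, adjusted p = 0.9997 from limma). It was 0.06 without B302 and 0.46 without B256. With the series of mice as a block it was 0.41, at an unadjusted p = 0.0392 from limma. *Psma6* followed with 0.12, and the other ring genes lay between -0.0022 (*Psma3*) and 0.10 (*Psma5*). *Psma8*, the testis-specific alternative of an alpha subunit, was the 1 member among the dimmest genes of the array, with a mean log2 signal of 4.33 and a log2 fold change of 0.09.

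The constitutive beta ring carries the active sites and held 5 genes above 0 and 2 below, with a median of 0.05 that turned to -0.07 without KO mouse B253 and to -0.04 without WT mouse B267. *Psmb5*, the chymotrypsin-like subunit, had log2 signals of 10.17, 9.77 and 9.53 in the KO mice and 10.10, 9.42 and 9.78 in the WT mice. *Psmb6*, the caspase-like subunit, read 10.75, 10.23 and 10.23 in the KO mice and 10.60, 10.10 and 10.22 in the WT mice. In both genes the highest KO mouse was B253 and the highest WT mouse was B256, and the groups overlapped over most of their range. *Psmb7*, the trypsin-like subunit, read 10.83, 10.57 and 10.73 against 11.05, 10.76 and 10.36, with B256 highest and B302 lowest. The log2 fold changes were 0.06 for *Psmb5* (SE 0.21), 0.10 for *Psmb6* (SE 0.19) and -0.01 for *Psmb7* (SE 0.18), each with an adjusted p of 0.9997 from limma. The 95% interval of the fold was 0.745 to 1.45 for *Psmb5*, 0.797 to 1.44 for *Psmb6* and 0.750 to 1.31 for *Psmb7*. *Psmb1* to *Psmb4*, the remaining subunits of this ring, lay between -0.05 (*Psmb3*) and 0.06 (*Psmb2*).

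The interferon-inducible subunits had no common direction. *Psmb8*, which takes the place of *Psmb5*, had log2 signals of 6.71, 6.89 and 6.80 in the KO mice and 6.27, 7.20 and 6.44 in the WT mice. The 3 KO mice sat inside the range of the WT mice, whose highest, B267, and lowest, B256, were also the extremes of all 6. *Psmb9*, the counterpart of *Psmb6*, read 7.80, 7.31 and 7.05 against 7.31, 7.97 and 7.47. *Psmb10*, the counterpart of *Psmb7*, read 7.28, 7.11 and 6.98 against 6.91, 7.27 and 7.01. For *Psmb9* B267 was again the highest of all mice, while for *Psmb10* B253 and B267 were level, and B256 was the lowest WT mouse of both. The log2 fold changes were 0.16 for *Psmb8* (SE 0.22), -0.20 for *Psmb9* (SE 0.23) and 0.06 for *Psmb10* (SE 0.14), each with an adjusted p of 0.9997 from limma. *Psmb9* came to -0.0031 without WT mouse B267 and to -0.41 without KO mouse B253. *Psmb11*, the subunit of thymic epithelium and the next gene to *Psmb5* in the GRCm38.p6 annotation, was at -0.10. Its group means of 4.89 in KO and 4.99 in WT livers lie under the array medians.

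**Figure D2:**
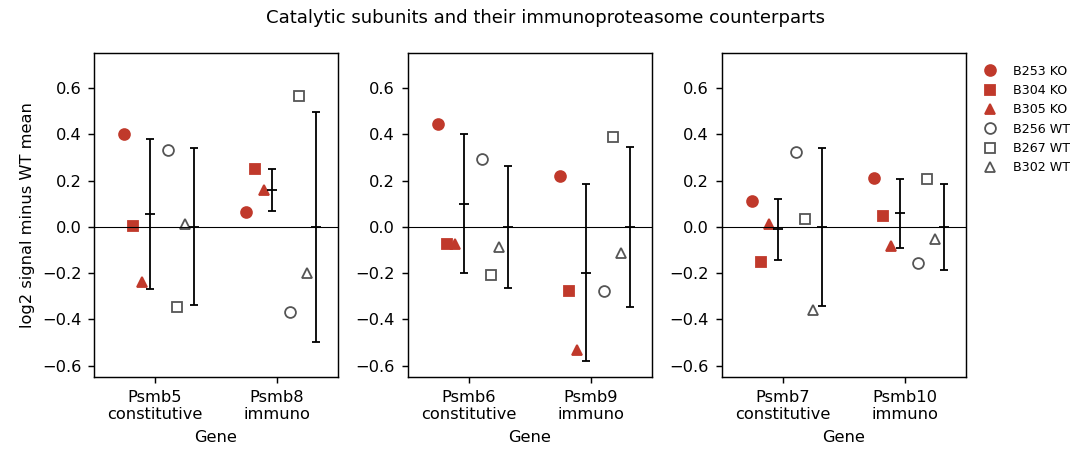
Log2 signal of the 3 constitutive catalytic subunits and of the immunoproteasome subunits that replace them in each mouse, minus the WT mean of the gene (vertical axis). Filled red symbols are KO and open symbols WT mice, the bars give the mean and SD of each group (n = 3), and the groups overlap in all 6 genes.

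The exchange of subunits was read within each mouse as the immunoproteasome gene minus its constitutive counterpart, set to 0 at the WT mean, since the levels of different probe sets are not comparable. The *Psmb8* minus *Psmb5* difference was -0.33, 0.24 and 0.40 in the KO mice and -0.70, 0.91 and -0.21 in the WT mice. The KO mean of 0.10 was smaller than the SD of either group (0.386 in KO, 0.826 in WT). *Psmb9* minus *Psmb6* was below 0 in all KO mice, at -0.23, -0.20 and -0.46, and lay within the WT mice, at -0.57, 0.60 and -0.03. *Psmb10* minus *Psmb7* was 0.10, 0.20 and -0.10 in the KO mice and -0.48, 0.17 and 0.31 in the WT mice. In each pair the KO mice fell inside the WT range.

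The PA28 activator is built from *Psme1* and *Psme2*, whose genes lie side by side with only *Emc9* between them in the GRCm38.p6 annotation. *Psme1* had log2 signals of 9.60, 9.47 and 9.17 in the KO mice and 8.71, 9.74 and 9.14 in the WT mice. *Psme2* read 7.29, 7.04 and 6.71 in the KO mice and 6.52, 6.93 and 6.70 in the WT mice. B256 was the lowest mouse and B253 was the highest KO mouse in both genes. *Psme2* had a log2 fold change of 0.30 (SE 0.17, fold 1.23 with a 95% interval of 0.937 to 1.62) and *Psme1* of 0.22 (SE 0.24), with an adjusted p of 0.9997 for each from limma. *Psme2* was at 0.16 without B253. The probe set that *Psme2b* shares with *Psme2* had a log2 fold change of 0.22. *Psmb8* and *Psmb9* are neighbours too, with *Tap1*, a peptide transporter of the class I pathway, between them, and *Tap1* itself had a log2 fold change of -0.10.

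*Psme3* was the lowest of the members. It encodes PA28 gamma, a nuclear activator that works without ubiquitin. Its log2 signals were 8.27, 8.10 and 8.29 in the KO mice and 8.44, 8.34 and 8.58 in the WT mice. Every KO mouse lay below every WT mouse, and the nearest mice of the groups were B305 and B267. The log2 fold change was -0.23 (SE 0.12, fold 0.850 with a 95% interval of 0.702 to 1.03, unadjusted p = 0.0857 and adjusted p = 0.9997 from limma). The exact two-sided permutation test gave p = 0.1, the smallest that 3 against 3 mice allow. The difference was -0.12 within the two-hundred series and -0.39 within the three-hundred series. *Psme3ip1*, whose product binds PA28 gamma, read 7.13, 6.90 and 6.87 in the KO mice and 6.81, 6.67 and 6.81 in the WT mice, with every KO mouse above every WT mouse. Its log2 fold change was 0.20 (SE 0.12, adjusted p = 0.9997 from limma). *Psme4*, the activator PA200, was at 0.08, and *Psmf1*, the inhibitor PI31, at 0.05.

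Of the 19S ATPases, the ring that unfolds substrates, 5 were above 0 and 1 below, with a median of 0.08 that turned to -0.0087 without WT mouse B302. *Psmc4* (0.16) and *Psmc3* (0.12) had the smallest unadjusted p of this ring, and *Psmc1* was at -0.09. The other 19S subunits held 9 genes above 0 and 2 below, with a median of 0.11 that ran from 0.06 without B253, B267 or B302 to 0.21 without B256. *Psmd14* encodes the deubiquitinase of the cap. It read 9.04, 8.96 and 9.10 in the KO mice and 8.93, 8.95 and 8.90 in the WT mice, so that every KO mouse lay above every WT mouse, with B304 and B267 almost level. Its log2 fold change was 0.11 (SE 0.11, adjusted p = 0.9997 from limma). *Psmd7*, the partner of *Psmd14* in the lid, read 8.14, 8.07 and 7.99 against 8.004, 7.78 and 7.93, a log2 fold change of 0.16. *Psmd12* was also at 0.16, and the lowest subunit of the cap was *Psmd13*, at -0.14. *Psmd4*, a ubiquitin receptor, was at -0.03.

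The assembly chaperones included the member with the smallest p. *Psmg3*, a chaperone of the alpha ring, had log2 signals of 5.87, 5.50 and 6.22 in the KO mice and 5.58, 5.29 and 5.40 in the WT mice. KO mouse B305 was highest, and KO mouse B304 lay below WT mouse B256. The log2 fold change was 0.44 (SE 0.18, fold 1.36 with a 95% interval of 1.01 to 1.81, unadjusted p = 0.0417 and adjusted p = 0.9997 from limma). It was 0.43 within the two-hundred series and 0.46 within the three-hundred series, 0.26 without B305, and the exact two-sided permutation p was 0.2. The other chaperones of the core did not share this value. *Psmg1* was at -0.06, *Psmg2* at -0.01 and *Psmg4* at -0.13. The chaperones of the 19S base were at 0.14 (*Psmd10*), 0.04 (*Psmd9*) and 0.01 (*Psmd5*), and their median of 0.04 turned to -0.05 without B253 and to -0.14 without B302. *Psmc3ip* was at 0.12.

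The constitutive proteasome genes tended to share their highest and lowest mice. The mean of the 31 constitutive 26S subunits, as log2 signal minus the WT mean, was 0.17, 0.03 and 0.01 in the KO mice and 0.19, -0.10 and -0.09 in the WT mice. The KO mice lay inside the WT range, and the 2 highest mice were one of each group, B256 and B253. B256 was the highest of the 6 mice for 17 of the 31 subunits (54.8%, beside 16.8% of all genes). B302 was the lowest for 15 (48.4%, beside 20.7%) and B267 for 13 (41.9%, beside 18.5%).

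**Figure D3:**
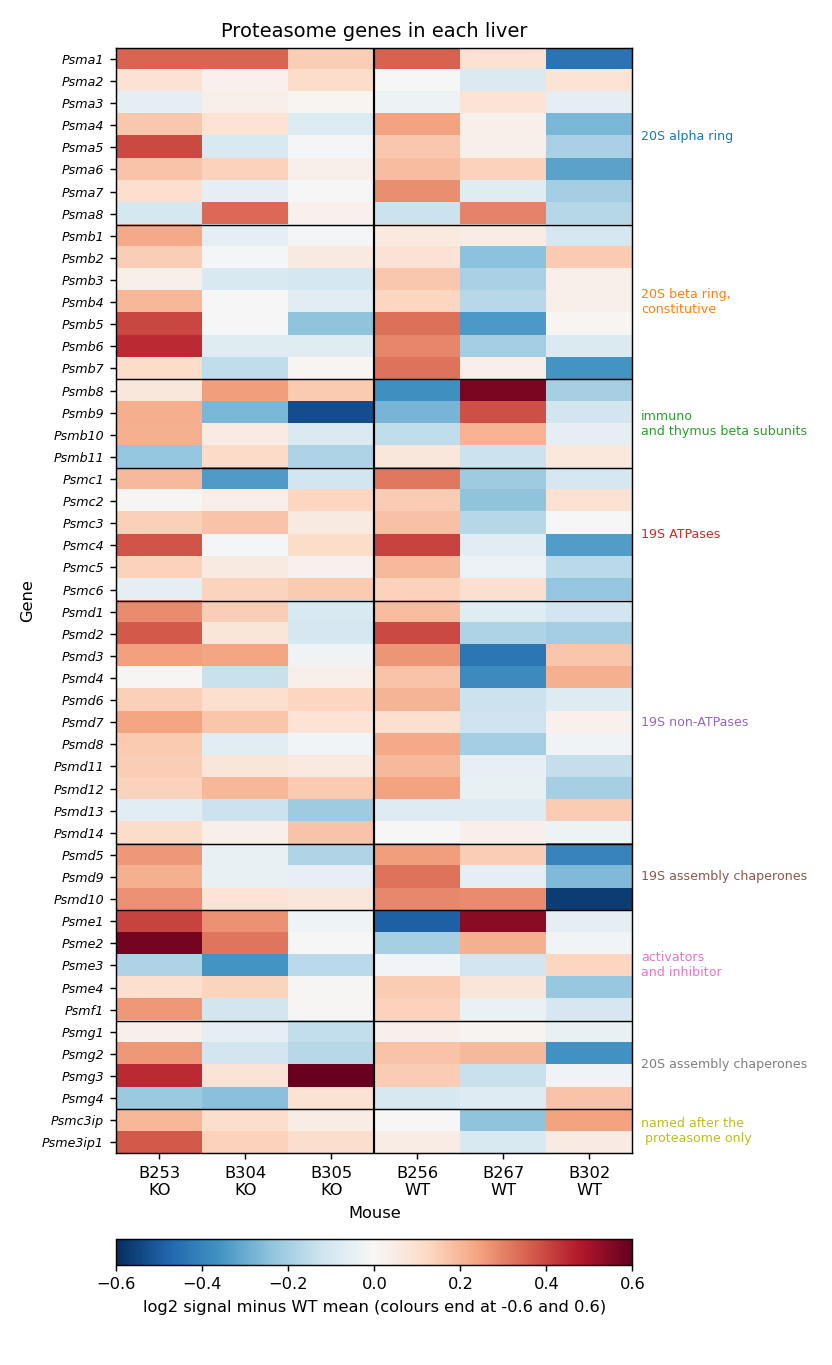
Log2 signal of the 50 proteasome genes (rows, grouped by role) in the 6 mice (columns), minus the WT mean of each gene, from blue (lower) to red (higher). The B253 and B256 columns are red in most constitutive rows, while B256 is blue and B267 red in *Psmb8* and *Psme1*.

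The interferon-inducible arm followed another order of mice. The mean of *Psmb8*, *Psmb9*, *Psmb10*, *Psme1* and *Psme2* was 0.29, 0.12 and -0.10 in the KO mice and -0.30, 0.38 and -0.09 in the WT mice. B267, low for the constitutive subunits, was the highest of the 6 mice for 3 of these 5 genes (60%, beside 14.8% of all genes). B256, high for the constitutive subunits, was the lowest for 4 of them (80%, beside 16%). The interferon-stimulated genes, of which 13 of 15 were measured, averaged 0.08, -0.08 and -0.31 in the KO mice and -0.26, 0.28 and -0.03 in the WT mice. In these means B267 was the highest mouse as well, though not in every gene, and B256 was again the lowest WT mouse. In the list, 6 genes were above 0 and 7 below, with a median log2 fold change of -0.06 and 0 genes called. The antiviral gene *Oas1a* was at -0.45 and *Usp18*, a brake on interferon signalling, at -0.30, with adjusted p of 0.9997 for each from limma.

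Liver tissue holds immune cells that express the immunoproteasome, and in bulk RNA fewer cells of a type and less RNA per cell cannot be told apart. The 10 T and NK cell markers averaged -0.19, -0.17 and -0.0031 in the KO mice and -0.06, 0.17 and -0.11 in the WT mice, with mean log2 signals of 4.63 to 4.82 in KO and 4.72 to 4.99 in WT livers. B267 was the highest mouse here too. Of these markers, 4 were above 0 and 6 below (median -0.13), 4 (*Cd3e*, *Cd3d*, *Nkg7* and *Gzmb*) had every KO mouse below every WT mouse, beside 3.7% of all genes, and 0 were called. *Cd3d* and *Gzmb* had group means of 3.51 to 3.82, under the array medians. The cytotoxic granule gene *Nkg7* was at -0.54, with a KO mean of 4.68 that also lies under the array medians and a WT mean of 5.23. The T cell receptor gene *Cd3e* was at -0.22. The 10 Kupffer cell and macrophage markers averaged 0.08, -0.36 and -0.13 in the KO mice and 0.24, 0.22 and -0.46 in the WT mice (median -0.14, 2 above 0 and 8 below), with *Timd4* at -0.31 and *Marco* at -0.28. Of the B cell markers, 4 of 5 were measured, with a median of 0.01 and means of -0.06, 0.12 and 0.15 in the KO mice and -0.12, 0.09 and 0.03 in the WT mice. *Cd79a* was at 0.42, with every KO mouse above every WT mouse, beside 3.46% of all genes. Its group means of 4.11 in KO and 3.69 in WT livers lie under the array medians, and *Cd79b* was at -0.17. The part of these cells in the values of *Psmb8* to *Psmb10*, *Psme1* and *Psme2* was not tested.

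**Figure D4:**
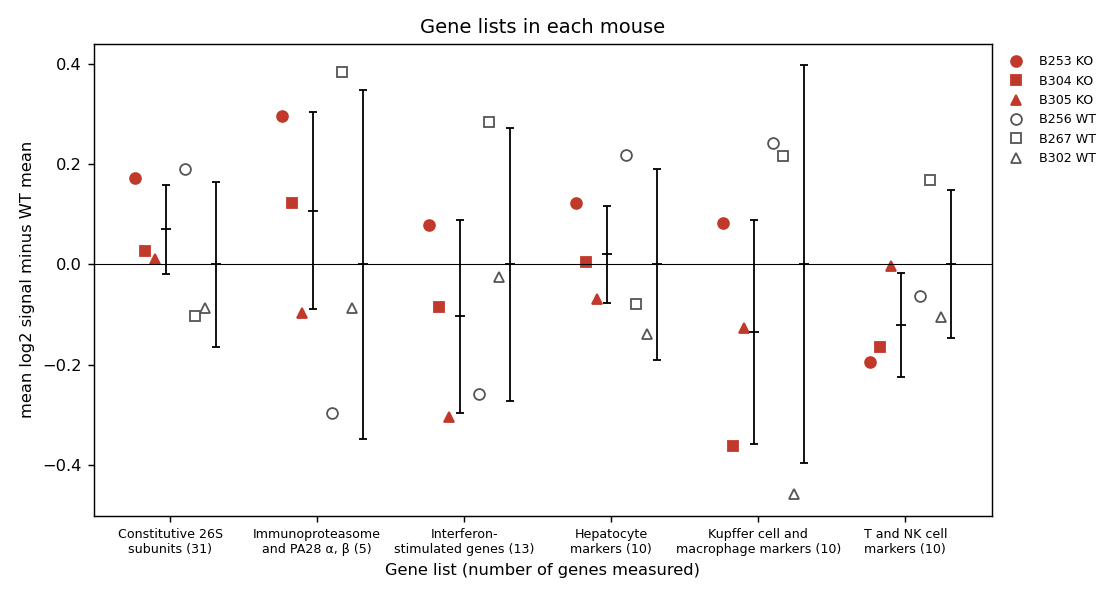
Mean log2 signal of 6 gene lists in each mouse, minus the WT mean (vertical axis). Filled red symbols are KO and open symbols WT mice, the bars give the mean and SD of each group (n = 3), and B256 is the highest mouse for the constitutive 26S subunits and the lowest WT mouse for the immunoproteasome and PA28 genes.

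The labelled tissue showed its own markers. The hepatocyte markers, of which 10 of 12 were measured, had mean log2 signals of 11.9 to 12.3 in the 6 livers. They averaged 0.12, 0.01 and -0.07 in the KO mice and 0.22, -0.08 and -0.14 in the WT mice, with B256 and B253 highest as for the constitutive 26S subunits. Of them, 7 were above 0 and 3 below, with a median of 0.02, *Tat* at 0.17 and *Apoa1* at -0.10. Whether the order of the mice in the 26S subunits depends on hepatocyte content was not tested. The 8 sinusoidal endothelial markers averaged -0.09, -0.18 and -0.16 in the KO mice and 0.19, -0.04 and -0.15 in the WT mice (median -0.20, *Cdh5* at -0.25, *Stab2* at -0.31). The 8 stellate cell markers averaged -0.16, -0.25 and -0.16 in the KO mice and 0.13, 0.08 and -0.20 in the WT mice (median -0.17, *Lrat* at -0.43, *Col1a2* at -0.30). Of the endothelial markers, 2 were above 0 and 6 below, and *Cdh5* had every KO mouse below every WT mouse. Of the stellate markers, 0 were above 0 and 8 below, but *Hgf* among the 8 was level, at -4.7e-05. *Lrat* and *Col1a2* had every KO mouse below every WT mouse. Such separation was seen in 3.7% of all genes. In the means of both lists WT mouse B302 was as low as KO mice, and 0 markers were called.

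Genes that control the proteasome or lie outside the naming rule were read beside the members, and 15 of 17 listed were measured. Of these, 11 were above 0 and 4 below, with a median of 0.07 and 0 called. *Nfe2l2*, the oxidative stress factor, had log2 signals of 8.92, 9.06 and 8.84 in the KO mice and 8.004, 8.55 and 8.10 in the WT mice. Every KO mouse lay above every WT mouse. Its log2 fold change was 0.72 (SE 0.16, fold 1.65 with a 95% interval of 1.28 to 2.13, unadjusted p = 0.0016 and adjusted p = 0.9997 from limma). *Nfe2l1*, the factor of the proteasome recovery response, read 8.31, 7.71 and 7.77 against 7.79, 7.73 and 7.84. The log2 fold change of *Nfe2l1* was 0.14 (SE 0.17), with 0.55 within the two-hundred series, where B253 was high, and -0.10 within the three-hundred series. All 6 members found to hold the antioxidant response element were above 0, from 0.04 (*Psmd9*) to 0.16 (*Psmd12*), beside 76% of all members. Promoters of 42 of the 50 members were searched, and a link of these values to *Nfe2l2* was not tested. *Nfya*, a subunit of NF-Y, was at 0.28, *Sem1*, a small subunit of the cap, at 0.18, and *Pomp*, the maturation factor of the core, at 0.01.

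The steps before and after the proteasome held 0 called genes. Of 16 genes that supply or deliver ubiquitin, 10 were measured, 4 above 0 and 6 below (median -0.01), with *Ubqln1*, a shuttle, at 0.12. *Ufd1*, a cofactor of the unfoldase p97, was at -0.15, with every KO mouse below every WT mouse, beside 3.7% of all genes. Of 12 genes of class I antigen presentation, 9 were measured, 4 above 0 and 5 below (median -0.03). *Pdia3* (0.23) and *Calr* (0.19), chaperones of peptide loading, had every KO mouse above every WT mouse, beside 3.46% of all genes. Of 16 autophagy genes, the other main route of protein breakdown, 4 were above 0 and 12 below (median -0.03), with *Gabarap* at -0.13 and *Becn1* at 0.16.

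Of the members, 5 had several probe sets (*Psma3*, *Psma5*, *Psmb3*, *Psmc1* and *Psmd2*), and for all but *Psmc1* the brightest was numbered among probe sets for genes of another chromosome. What those probe sets read was not tested. With the probe set numbered on the gene's own chromosome, the log2 fold change was 0.03 in place of -0.0022 for *Psma3*, 0.05 in place of 0.10 for *Psma5*, 0.10 in place of -0.05 for *Psmb3* and 0.15 in place of 0.11 for *Psmd2*. *Psma3* and *Psmb3* thus differed in sign between these probe sets. The median over all members was 0.07 with either choice.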

How the data were processed

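Liver total RNA of 3 KO and 3 WT mice was hybridized to 1 array per mouse, with no pooling. Groups and mouse numbers came from the sample labels and the fasted state from the study's text, and 0 samples were left out. The deposited values are log2 signals that, per the labels, the authors made with RMA, a method that subtracts background, brings the arrays to 1 scale and combines the probes of a probe set. Such processing draws the arrays to a common distribution, so a shift of most genes would not be seen. Partek is also named in the labels, while Expression Console and BRB-ArrayTools stand in the methods, all with versions not given here. Nothing says whether the labelling was split into batches.

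Of 35556 probe sets, 21789 had 1 symbol in an annotation of an earlier array generation than the methods name, 1621 had several and 12146 had none. Symbols were updated by gene identifier (21698 found). For the 999 genes with several probe sets the brightest was kept, which gave 19938 genes, with no intensity filter. Groups were compared by the two-sided moderated test of limma 3.58.1 (lmFit, eBayes; R 4.3.3), adjusted over all genes by Benjamini-Hochberg at a threshold of 0.05. P-values, SEs and intervals from limma rest on the spread between 3 mice per group, drawn toward the spread of all genes. Lists were described by counts and medians. The limma fit was tested on simulated data. Summaries and figures used Python 3.11.15, pandas 2.3.3 and matplotlib 3.10.9. Neighbours and promoters came from RefSeq tables of GRCm38.p6.

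The members, gene lists and tests were chosen with earlier results of these data known. The genes named are *Stk11*, the catalytic subunits and their replacements, the activators and the inhibitor, the 2 members of each role with the smallest p, members with an unadjusted p under 0.05 or groups that do not overlap, *Nfe2l1*, and the 2 genes with the smallest p of every other list. Further genes (*Psma3*, *Psma5*, *Psma8*, *Psmb3*, *Psmc1*, *Psmd4*, *Psmd5*, *Psmd13*, *Psmg1*, *Psmg2*, *Tap1*, *Cd3d*, *Gzmb*, *Hgf*, *Sem1*, *Pomp*) were added after their values were seen. They were added as extremes, as the rest of a small group or for their value, place or role. Alternatives were quantile normalization, median centring, dropping the dimmest genes (the lowest of 3 equal parts by mean signal) and averaging probe sets. Further ones were robust estimation with an intensity trend, weighting of arrays, an unpaired t-test and a block for the series of mice. Each mouse was also left out. The probe set numbered on the gene's own chromosome was an alternative chosen after seeing the data.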

Additional observations from a re-analysis of the deposited data

How the results depend on the processing

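The number of members with an adjusted p under 0.05 stayed at 0 under every alternative that was run. Over all genes at most 1 was called under any of them, so this 0 says little about the members. The lowest adjusted p of a named member under any of them was 0.964, from limma. Of 533 values recomputed, 492 were counted as unchanged. They kept their direction and their side of the threshold, or lay within the spread between replicates or within 1.5 times the main count. Medians that changed sign are among the 492, such as that of the constitutive beta ring (0.05, and -0.07 without B253). The count is therefore no measure of how stable the directions were. *Stk11* fell by a like amount throughout, with log2 fold changes of -1.71 to -1.57 over all 6 omissions of 1 mouse. Its adjusted p passed 0.05 in the unpaired t-test (log2 fold change -1.64, adjusted p = 0.566). From limma it did so without any 1 mouse other than B302. The members at an unadjusted p under 0.05 numbered 0 in the unpaired t-test and 0 to 2 when 1 mouse was left out. They were *Psma1* and *Psmg3* without B256, *Psmb8* and *Psme1* without B267, *Psme2* without B305 and *Psmg3* without B304. With a block for the series of mice, the 1 member was *Psma1* in place of *Psmg3*, beside 1001 of all 19938 genes. Members whose groups do not overlap numbered 0 after quantile normalization, and 5 to 16 with 1 mouse left out, with the 16 without B256. The share of all genes was not counted there. The cause of these changes was not tested, apart from the fewer mice of an omission.

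Of the 26 named members, 14 changed sign under some alternative, and the other 12 kept their sign but not their size. *Psmb7* turned to 0.0022 with centred arrays and 0.11 with the series block, and *Psmd9* to -0.012 with array weights. When 1 mouse was left out, the log2 fold change ran from -0.044 to 0.21 for *Psma6*, -0.059 to 0.14 for *Psmb2*, -0.12 to 0.22 for *Psmb5*, -0.075 to 0.25 for *Psmb6*, -0.19 to 0.15 for *Psmb7*, -0.025 to 0.44 for *Psmb8*, -0.019 to 0.16 for *Psmb10*, -0.0092 to 0.36 for *Psmc4*, -0.092 to 0.20 for *Psmd9*, -0.14 to 0.29 for *Psmd10*, -0.028 to 0.49 for *Psme1*, -0.033 to 0.16 for *Psme4*, -0.053 to 0.13 for *Psmf1* and -0.0050 to 0.24 for *Psmc3ip*. None of these members was called under any alternative. Over the same omissions the members that kept their sign ran from 0.06 to 0.46 (*Psma1*), -0.41 to -0.0031 (*Psmb9*), -0.21 to -0.03 (*Psmb11*), 0.04 to 0.21 (*Psmc3*), 0.10 to 0.21 (*Psmd7*), 0.06 to 0.28 (*Psmd12*), 0.07 to 0.14 (*Psmd14*), 0.16 to 0.45 (*Psme2*), -0.29 to -0.17 (*Psme3*), 0.26 to 0.62 (*Psmg3*), -0.24 to -0.04 (*Psmg4*) and 0.12 to 0.25 (*Psme3ip1*). The median of the 20S assembly chaperones (-0.03) turned to 0.06 with the block for the series and to 0.02, 0.02 and 0.03 without B256, B267 and B305. The median of the immunoproteasome and thymus subunits (-0.02) turned to 0.02 with that block and to 0.08 and 0.05 without B267 and B305. The median of the 19S assembly chaperones turned to -0.01 with array weights.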
